A study of Homo sapiens with 12 samples.

Results

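HOX genes encode homeodomain transcription factors, and the 39 of them in the human genome were taken here by symbol, as HOXA, HOXB, HOXC or HOXD followed only by a number. They were 39 of the 60671 genes in the count table, with 11 genes in HOXA, 10 in HOXB, 9 in HOXC and 9 in HOXD. RNA was measured in BJ-5ta, a line of human foreskin fibroblasts immortalized with telomerase, and in ΔLEO1 cells, a line derived from it in which the LEO1 gene was disrupted with CRISPR/Cas9. LEO1 is a subunit of the PAF1 complex, which travels with RNA polymerase II. The cells were sampled while growing in 10% serum and after 10 days in 0.1% serum, a treatment that makes fibroblasts quiescent. Polyadenylated RNA was sequenced in 3 libraries for each of 4 groups, with a set of artificial RNAs, the ERCC transcripts, added as spike-in controls.

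The groups were wild-type cells in 10% serum (WT_10, libraries 1 to 3), ΔLEO1 cells in 10% serum (Leo1_10, libraries 4 to 6), wild-type cells in 0.1% serum (WT_01, libraries 7 to 9) and ΔLEO1 cells in 0.1% serum (Leo1_01, libraries 10 to 12). All of them carried the telomerase transgene. The ΔLEO1 cells were 1 clone, so the loss of LEO1 and the history of that clone cannot be told apart. The sources used here do not say whether the 3 libraries of a group came from separate cultures, and the p-values then measure only the spread between these libraries.

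The HOX genes lie in 4 clusters. Within a cluster, low-numbered genes act towards the head of the embryo and high-numbered genes towards the tail and the tips of the limbs and genitals, in the order of the genes on the chromosome. Fibroblasts keep a site-specific HOX pattern in culture, which makes these genes a record of where in the body a fibroblast came from. Polycomb proteins keep silent HOX genes off, and the Trithorax group and transcription elongation factors keep active ones on. The HOXB cluster spanned chr17:48528526-48729178, HOXC chr12:53938765-54056030 and HOXD chr2:176092891-176190907 in the GENCODE annotation of GRCh38.

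The libraries held 26240632 to 45315560 gene counts, and ERCC transcripts took between 0.625% and 3.24% of all counts. Library 3, 6, 9 or 12, the highest-numbered one of each group, stood apart from the other two of its group, with a chi-square per gene of 66.2 to 144 in pairs that held it and 3.04 to 12.1 in the others. LEO1 itself lay between 20.4 and 30.4 CPM (counts scaled to a fixed total of gene counts per library) in the 6 wild-type libraries. In the 6 ΔLEO1 libraries it lay between 0.661 and 1.44 CPM, so every library matched the genotype in its label. The serum part of the labels was not checked in this way. All 16 fibroblast markers were on. Of 3 muscle and 5 pigment cell markers none was on, with MYOD1, MYOG and SOX10 at 0 counts in every library. Of 6 keratinocyte markers KRT1 and DSG3 were at 0 and KRT10 alone was on, and the 6 summed to 37.6 to 51.0 CPM. A gene was called on, and entered the tests, when it passed 1 CPM in at least 3 libraries, which left 13236 genes.

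The fibroblasts carried a posterior HOX pattern from 3 of the 4 clusters. Of the 39 genes, 19 were on: 9 of 11 in HOXA, 6 of 9 in HOXC, 4 of 9 in HOXD and 0 of 10 in HOXB. In the posterior paralog groups (9 to 13), 11 of 16 genes were on, with all 4 of HOXA. The central groups (4 to 8) had 6 of 15 on, and the anterior groups (1 to 3), which pattern the hindbrain, had 2 of 8, among them HOXA3. Posterior genes took 88.7% to 94.1% of the HOX counts of a library, central genes 5.0% to 10.0% and anterior genes 0.916% to 1.43%, as counts not divided by gene length.

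**Figure D1:**
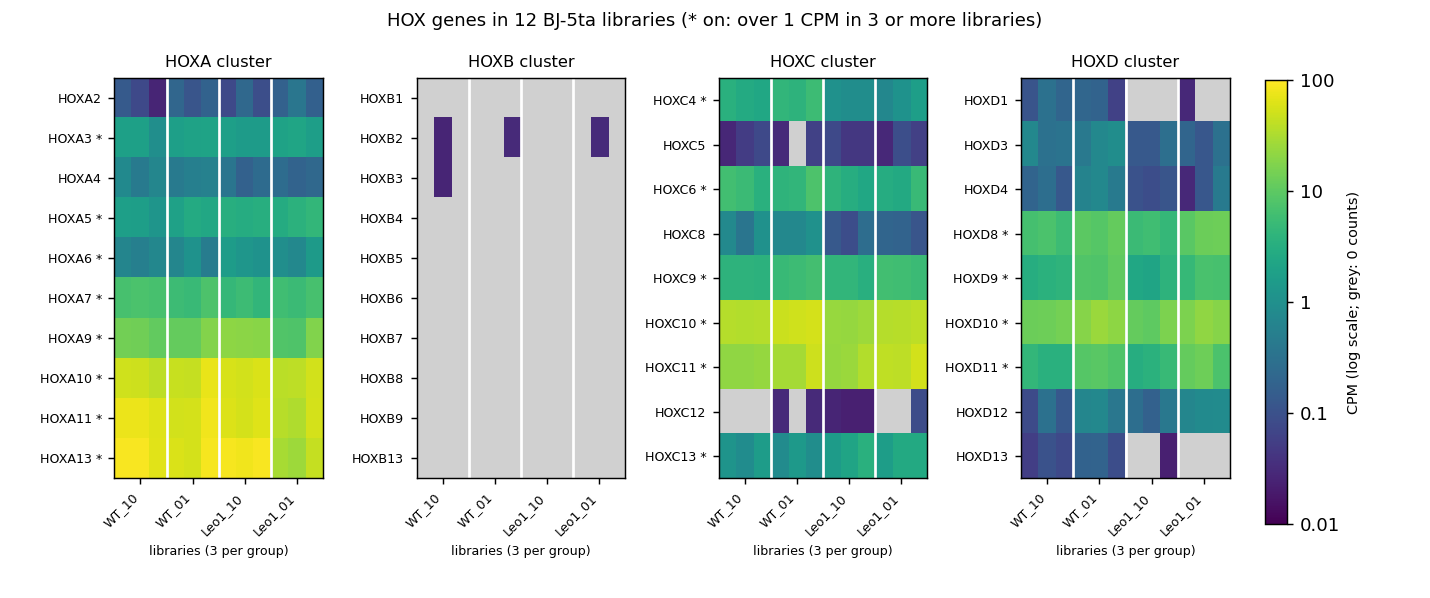
Level of HOX genes in each of the 12 libraries, on a log scale, ordered by cluster and position, with grey for 0 counts. Posterior genes of HOXA, HOXC and HOXD hold the highest levels, and the whole HOXB cluster lies at or near 0.

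Per gene length, as RPKM (CPM per kilobase of exon), HOXA11 was the highest at a mean of 25.7 over the 12 libraries. HOXA11 patterns the forearm and the reproductive tract. HOXC10 followed at 16.1 RPKM, HOXA10 at 13.7, HOXA13 at 13.3 and HOXC11 at 9.96, and the leading HOXD gene was HOXD10 at 6.18 RPKM. The order among HOXC10, HOXA10 and HOXA13 was not fixed: in WT_10 they held 15.1 ± 0.101, 12.8 ± 1.60 and 16.3 ± 2.69 RPKM (SD, n = 3), and in Leo1_01 HOXC10 stood at 16.2 ± 0.873 and HOXA13 at 6.51 ± 1.92. HOXA9 (4.76 RPKM), HOXD8 (3.20), HOXD11 (3.19), HOXC9 (2.86), HOXD9 (2.86) and HOXA7 (2.5) formed a middle tier.

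The HOXB cluster was close to silent in every group. HOXB2 had 3 counts in all and HOXB3 had 1, and the other 8 HOXB genes had 0 counts in the 12 libraries. A count of 0 allows up to 3 counts in a library of this size, for counting error only. The off genes elsewhere were HOXA2 and HOXA4, HOXC5, HOXC8 and HOXC12, and HOXD1, HOXD3, HOXD4, HOXD12 and HOXD13. None of these exceeded 1.05 CPM in any library. HOXC8, a gene of the thoracic trunk, came nearest to the threshold at 0.0883 to 1.05 CPM, and HOXA6, the lowest gene on, had 0.478 to 1.65 CPM with 5 libraries above 1 CPM. All Leo1_10 libraries were among those 5 and no WT_10 library was, so HOXA6 entered the tests only through Leo1_10. Comparisons of HOXA6 with Leo1_10 are therefore tied to the filter.

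Promoters are shown for HOXA13 and HOXA11, 2 abundant genes that fell with serum removal on the spike-in scale in both genotypes, for HOXD11, which rose relative to the other genes, for HOXD1, which lies beside the start of a noncoding RNA, and for HOXB1 from the silent cluster. Each is the 250 bases upstream of the RefSeq start in GRCh38.p14, 5′ to 3′ on the strand of the gene. Capitals mark CCAAT, which reads as ATTGG on the other strand, and TAAT, the core that homeodomains bind, which reads as ATTA on the other strand. The TATA box core TATAAA was searched on both strands too and found in none of these 5 windows. The windows are chr7:27200092-27200341 (minus strand) for HOXA13, chr7:27185233-27185482 (minus) for HOXA11, chr2:176107030-176107279 (plus) for HOXD11, chr2:176188418-176188667 (plus) for HOXD1 and chr17:48531012-48531261 (minus) for HOXB1.

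HOXA13: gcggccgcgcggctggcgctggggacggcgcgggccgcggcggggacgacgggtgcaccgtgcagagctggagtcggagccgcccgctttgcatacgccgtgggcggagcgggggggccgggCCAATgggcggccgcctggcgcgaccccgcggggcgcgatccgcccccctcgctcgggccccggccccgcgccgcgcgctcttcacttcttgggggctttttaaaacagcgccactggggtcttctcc
HOXA11: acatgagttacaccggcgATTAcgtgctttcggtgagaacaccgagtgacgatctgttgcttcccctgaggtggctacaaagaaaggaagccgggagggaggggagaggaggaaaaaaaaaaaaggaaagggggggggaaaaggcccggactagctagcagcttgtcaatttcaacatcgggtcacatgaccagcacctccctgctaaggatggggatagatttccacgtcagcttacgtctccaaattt
HOXD11: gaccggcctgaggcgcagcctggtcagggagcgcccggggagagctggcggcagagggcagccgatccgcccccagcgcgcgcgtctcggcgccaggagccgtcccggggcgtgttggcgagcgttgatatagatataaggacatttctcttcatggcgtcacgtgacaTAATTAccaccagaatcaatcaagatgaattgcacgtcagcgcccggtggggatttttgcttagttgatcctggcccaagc
HOXD1: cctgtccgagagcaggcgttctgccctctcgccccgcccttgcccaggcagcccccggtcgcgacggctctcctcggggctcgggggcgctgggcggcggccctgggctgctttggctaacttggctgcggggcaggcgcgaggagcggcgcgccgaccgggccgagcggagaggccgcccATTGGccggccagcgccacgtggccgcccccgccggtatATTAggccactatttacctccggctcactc
HOXB1: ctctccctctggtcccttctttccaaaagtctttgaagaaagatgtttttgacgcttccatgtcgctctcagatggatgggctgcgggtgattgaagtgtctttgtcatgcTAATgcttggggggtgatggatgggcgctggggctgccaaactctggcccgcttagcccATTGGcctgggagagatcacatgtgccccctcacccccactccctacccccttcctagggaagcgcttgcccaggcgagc

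The HOXA13 window held 40 CG dinucleotides, the HOXD1 window 31, HOXD11 23, HOXA11 11 and HOXB1 7. RefSeq gave 27 such windows for 20 of the 39 HOX genes, and the median was 19 CG for them and 11 over all 35116 windows in the table. CCAAT on either strand was in 18 of the 27 HOX windows and in 32.0% of all windows, and TAAT was in 20 of 27 and in 47.4% of all. The GC box GGGCGG was in 13 of 27 (42.6% of all), TATAAA in 5 of 27 (10.7%) and TGATNNAT, a form bound by HOX and PBX proteins together, in 3 of 27 (6.47%). A TGATNNAT match can overlap a TAAT match, and the 2 TAAT matches of HOXD11 overlap each other. Of the 20 genes with a window, 11 were on, so the letters found are a description of both active and silent genes. The noncoding RNA HOTTIP starts 330 bases upstream of HOXA13, HOXA11-AS starts 176 bases upstream of HOXA11, and 1 of the 4 listed starts of HAGLR lies 96 bases upstream of HOXD1.

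When counts were scaled to the spike-ins, the HOX genes that passed a test of serum removal were lower and belonged to HOXA. In wild-type cells, 4 of the 19 HOX genes (21.1%) fell and 0 rose, at an adjusted p below 0.05 in edgeR's likelihood ratio test with all 13236 genes. Over all genes, 36.1% fell and 0.944% rose, and the median log2 change was -0.97 for all genes and -0.72 for the HOX genes. All 4 were HOXA genes, among them HOXA7 (log2 change -1.31, adjusted p = 0.0348), HOXA11 (-1.29, adjusted p = 0.0235) and HOXA13 (-1.46, SE 0.45, adjusted p = 0.0108). HOXA7 acts in the thorax, and HOXA13 in the tips of the limbs and the genital bud. As 4 of the 9 HOXA genes on, with a HOXA median of -1.05, they stood near the share and median of all genes. In bulk libraries, fewer cells with a given RNA and less of that RNA per cell cannot be told apart.

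In ΔLEO1 cells, 6 of the 19 (31.6%) fell with serum removal and 0 rose, against 47.2% and 0.975% of all genes. All 6 were again HOXA genes, among them HOXA6 (-1.34), HOXA9 (-1.78), HOXA10 (-1.41), HOXA11 (-1.50) and HOXA13 (-2.39, SE 0.45, adjusted p = 2.89e-05). HOXA6 passed the filter only through Leo1_10, its higher group here. The HOX median was -0.86, that of the 9 HOXA genes -1.41 and that of all genes -1.05. With all 12 libraries, no HOXC or HOXD gene passed on this scale in either genotype. For the 0 counts of rising genes, 0 HOX genes rose at an unadjusted p below 0.05, and neither edgeR's quasi-likelihood test nor DESeq2 called any.

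These counts leaned on single libraries. In wild-type cells the 4 became 0 without library 1, 2 or 7, 1 without library 9, 7 without library 3, and 8 without library 11 or 12. The share of all genes that fell moved with them, to 8.64% without library 7 and to 65.3% without library 12. In ΔLEO1 cells the 6 became 1 without library 4 or 10, 2 without library 11, and 16 without library 12, where 4.86% (library 10) to 88.4% (library 12) of all genes fell, and only HOXA13 passed in each of the 12 fits that left out 1 library. Without libraries 3, 6, 9 and 12 together, 9 of 19 HOX genes fell in wild-type cells against 72.4% of all genes, and 17 fell in ΔLEO1 cells against 93.1%, so neither count exceeded the share of all genes.

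**Figure D2:**
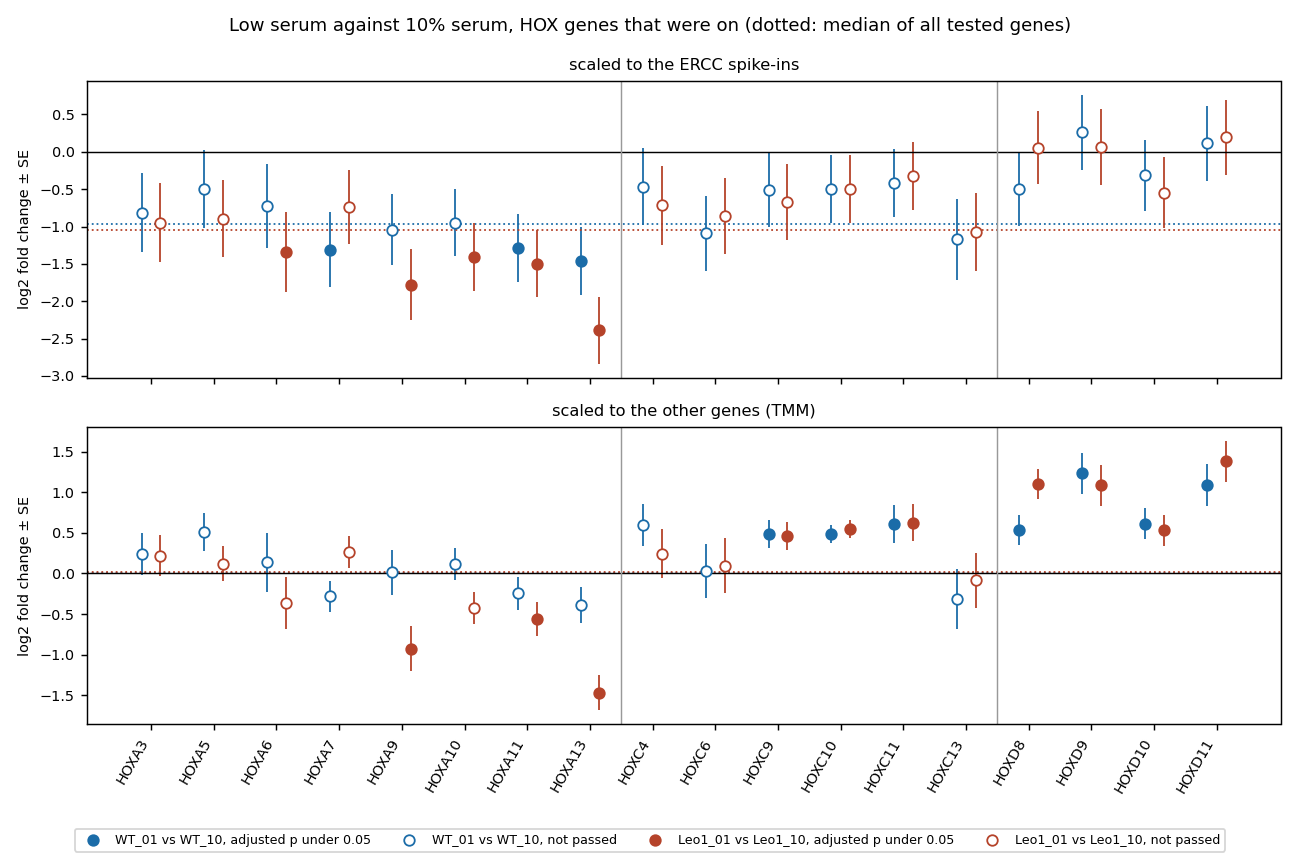
Change of HOX genes that were on with removal of serum, as log2 fold change ± SE, in wild-type cells and ΔLEO1 cells. The upper panel is scaled to the ERCC spike-ins and the lower to the other genes. In both panels and both genotypes the lowest point is HOXA13 and the highest is a HOXD gene. Filled points passed the test.

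Scaled to the other genes by TMM (the trimmed mean of M values), the same counts gave changes relative to the median gene, whose spike-in fall of -0.97 or -1.05 this scaling removes. On this scale 7 of 19 HOX genes rose in wild-type cells and 0 fell, against 16.0% and 16.6% of all genes, and the spike-in scale gave a negative sign for 5 of the 7. They were HOXC9 (0.49), HOXC10 (0.48, SE 0.111, adjusted p = 0.000135), HOXC11 (0.61), HOXD8 (0.54), HOXD9 (1.23, SE 0.248), HOXD10 (0.61) and HOXD11 (1.09, SE 0.258). In ΔLEO1 cells the same 7 genes rose relative to the other genes, by 0.46 for HOXC9, 0.55 for HOXC10, 0.63 for HOXC11, 1.11 for HOXD8, 1.09 for HOXD9, 0.53 for HOXD10 and 1.38 for HOXD11, against 16.5% of all genes. HOXA9 (-0.93), HOXA11 (-0.56) and HOXA13 (-1.47, SE 0.220, adjusted p = 2.15e-09) fell, against 12.9% of all genes. For the 0 HOX genes that fell in wild-type cells, 0 passed an unadjusted p of 0.05, and 0 passed the quasi-likelihood test.

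HOXC10, HOXD9 and HOXD11 passed in each of the 12 fits without 1 library in both genotypes, and HOXD8 and HOXA13 did so in ΔLEO1 cells. The 7 rising genes of wild-type cells became 3 without library 1 and 4 without library 3 or 9, against 12.6%, 13.3% and 16.1% of all genes. Without library 9, 3 HOX genes fell, against 17.7%. The 7 of ΔLEO1 cells became 4 without library 4 or 5, against 12.1% and 12.2% of all genes. The 3 that fell became 1 without library 10 or 11, against 9.70% and 8.72%, and 5 without library 9 or 12, against 14.5% and 15.7%. Without libraries 3, 6, 9 and 12 together, 7 HOX genes rose and 7 fell in wild-type cells, against 28.0% and 30.8% of all genes, and 7 rose and 6 fell in ΔLEO1 cells, against 29.2% and 28.4%.

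The counts behind these results are given as CPM, where a library's own gene total is the scale. HOXA13 stood at 90.2, 91.4 and 67.2 CPM in WT_10, at 87.8, 83.2 and 91.0 in Leo1_10, at 58.7, 54.4 and 87.6 in WT_01, and at 29.6, 25.6 and 44.1 in Leo1_01. The 3 quiescent ΔLEO1 libraries lay below all others, and the wild-type groups overlapped through library 9. In the same unit but scaled to the ERCC counts, HOXA13 stood at 11374, 9602 and 4667 in WT_10, at 13885, 9697 and 9594 in Leo1_10, at 2750, 3283 and 3267 in WT_01, and at 1558, 768 and 4004 in Leo1_01. On that scale the serum groups did not overlap in either genotype, and the genotypes overlapped in both sera.

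HOXA11 lay at 75.6, 75.5 and 63.5 CPM in WT_10, at 61.2, 55.0 and 62.8 in Leo1_10, at 53.1, 55.7 and 83.3 in WT_01, and at 37.8, 33.7 and 55.7 in Leo1_01. HOXA10, which acts in the uterus and limbs, lay at 51.3, 50.3 and 40.5 CPM in WT_10, at 57.6, 52.6 and 59.5 in Leo1_10, at 45.6, 44.6 and 73.0 in WT_01, and at 39.2, 39.9 and 53.5 in Leo1_01. HOXA9, known from blood stem cells, lay at 13.8, 13.4 and 10.9 CPM in WT_10, at 20.7, 20.1 and 19.8 in Leo1_10, at 11.4, 11.5 and 17.8 in WT_01, and at 8.34, 7.84 and 17.4 in Leo1_01. For all 3 genes library 9 was the highest of WT_01 and library 12 the highest of Leo1_01, and only HOXA9 in ΔLEO1 cells separated the serum groups in CPM. Of the exonic bases of HOXA11, 31.1% are shared with HOXA11-AS on the opposite strand, and the strand setting of the counting is not given in the sources used here.

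The other HOXA genes described were lower. HOXA7 lay at 6.94, 7.45 and 6.76 CPM in WT_10, at 4.59, 5.58 and 4.37 in Leo1_10, at 5.56, 5.11 and 7.73 in WT_01, and at 5.92, 5.32 and 6.97 in Leo1_01. Library 9 was the highest of WT_01, and in 10% serum HOXA7 was lower in each ΔLEO1 library than in any wild-type library. HOXA5, which patterns the lung and shoulder region, lay at 1.84, 1.76 and 1.22 CPM in WT_10, at 3.27, 3.02 and 3.26 in Leo1_10, at 1.93, 2.82 and 2.54 in WT_01, and at 2.85, 3.66 and 4.39 in Leo1_01. HOXA6 lay at 0.658, 0.536 and 0.714 CPM in WT_10, at 1.65, 1.26 and 1.08 in Leo1_10, at 0.683, 1.11 and 0.478 in WT_01, and at 0.949, 0.738 and 1.53 in Leo1_01. HOXA5 and HOXA6 were higher in every Leo1_10 library than in any WT_10 library. HOXA-AS3 covers 62.5% of the exonic bases of HOXA7 and 39.3% of those of HOXA6 on the opposite strand. HOXA3 ranged from 0.944 to 2.24 CPM and passed no test on either scale with all 12 libraries. It fell with serum removal on the spike-in scale in both genotypes (-1.08 and -1.45) when libraries 3, 6, 9 and 12 were left out. In that fit 72.4% and 93.1% of all genes fell, with medians of -1.03 and -1.72.

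In HOXC, HOXC10 and HOXC11 are posterior genes of the hindlimb and lumbar spinal cord. HOXC10 lay at 35.4, 35.0 and 35.3 CPM in WT_10, at 24.3, 23.4 and 26.3 in Leo1_10, at 48.2, 52.3 and 56.1 in WT_01, and at 35.8, 37.4 and 39.8 in Leo1_01. No pair of groups that shared a genotype or a serum overlapped, with the quiescent cells higher in CPM in both genotypes and the ΔLEO1 cells lower in both sera. HOXC11 lay at 21.8, 21.9 and 22.9 CPM in WT_10, at 23.3, 24.6 and 34.7 in Leo1_10, at 28.8, 29.2 and 49.6 in WT_01, and at 41.1, 39.4 and 53.1 in Leo1_01. HOXC9 lay at 3.92, 3.8 and 3.67 CPM in WT_10, at 4.33, 4.33 and 3.38 in Leo1_10, at 5.02, 5.60 and 6.30 in WT_01, and at 6.10, 5.87 and 5.24 in Leo1_01. Both were higher in CPM in each quiescent library than in any growing library of the same genotype. How many of all genes separated in CPM as these HOXC genes did was not computed.

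HOXC4, an anterior member of its cluster, lay at 3.43, 2.76 and 2.37 CPM in WT_10, at 1.06, 0.927 and 0.900 in Leo1_10, at 4.28, 3.85 and 5.55 in WT_01, and at 0.719, 1.11 and 1.76 in Leo1_01. HOXC13, which acts in hair and nails, lay at 1.18, 0.893 and 1.63 CPM in WT_10, at 1.57, 2.14 and 3.49 in Leo1_10, at 0.862, 1.41 and 0.926 in WT_01, and at 1.70, 2.74 and 2.72 in Leo1_01. HOXC4 was lower in each ΔLEO1 library than in any wild-type library, and HOXC13 separated the genotypes in 0.1% serum. HOXC6 ranged from 2.45 to 7.73 CPM and passed no test with all 12 libraries. Without libraries 3, 6, 9 and 12 it fell with serum removal on the spike-in scale (-1.58 in wild-type and -2.07 in ΔLEO1 cells). The medians of all genes there were -1.03 and -1.72. Relative to the other genes HOXC6 fell in wild-type cells in that fit (-0.56) and was lower in ΔLEO1 cells in both sera (-0.69 and -0.48). HOXC4 shares 17.8% of its exonic bases with neighbouring HOXC genes and HOXC6 15.7%, so the authors' counting could have divided or dropped those reads.

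All 4 active HOXD genes were higher in CPM in each quiescent library than in any growing library of the same genotype. The share of all genes that separated in this way was not computed. Relative to the other genes, 16.0% of all genes rose in wild-type cells and 16.5% in ΔLEO1 cells. HOXD8 lay at 6.58, 7.43 and 5.53 CPM in WT_10, at 5.31, 5.87 and 4.59 in Leo1_10, at 9.89, 8.77 and 11.3 in WT_01, and at 9.60, 12.6 and 13.3 in Leo1_01. HOXD9 lay at 3.10, 3.55 and 3.95 CPM in WT_10, at 2.37, 2.16 and 3.85 in Leo1_10, at 8.08, 7.93 and 10.4 in WT_01, and at 4.80, 7.04 and 6.86 in Leo1_01. HOXD10, a hindlimb motor neuron gene, and HOXD11, a partner of HOXA11 in the forearm, share 16.8% and 21.4% of their exonic bases with each other, so their counts are not fully separate. HOXD10 lay at 12.6, 12.9 and 14.4 CPM in WT_10, at 11.5, 10.2 and 16.1 in Leo1_10, at 18.8, 25.0 and 21.1 in WT_01, and at 16.2, 22.0 and 18.8 in Leo1_01. HOXD11 lay at 4.47, 3.52 and 3.52 CPM in WT_10, at 3.09, 3.60 and 4.93 in Leo1_10, at 8.70, 9.49 and 7.88 in WT_01, and at 11.2, 13.1 and 7.25 in Leo1_01. The library with the lowest quiescent value differed between the genes, and none of the 4 passed on the spike-in scale with all 12 libraries. HOXD8 (-0.79) and HOXD10 (-0.99) fell on that scale in ΔLEO1 cells without libraries 3, 6, 9 and 12. In that fit 93.1% of all genes fell, with a median log2 change of -1.72.

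**Figure D3:**
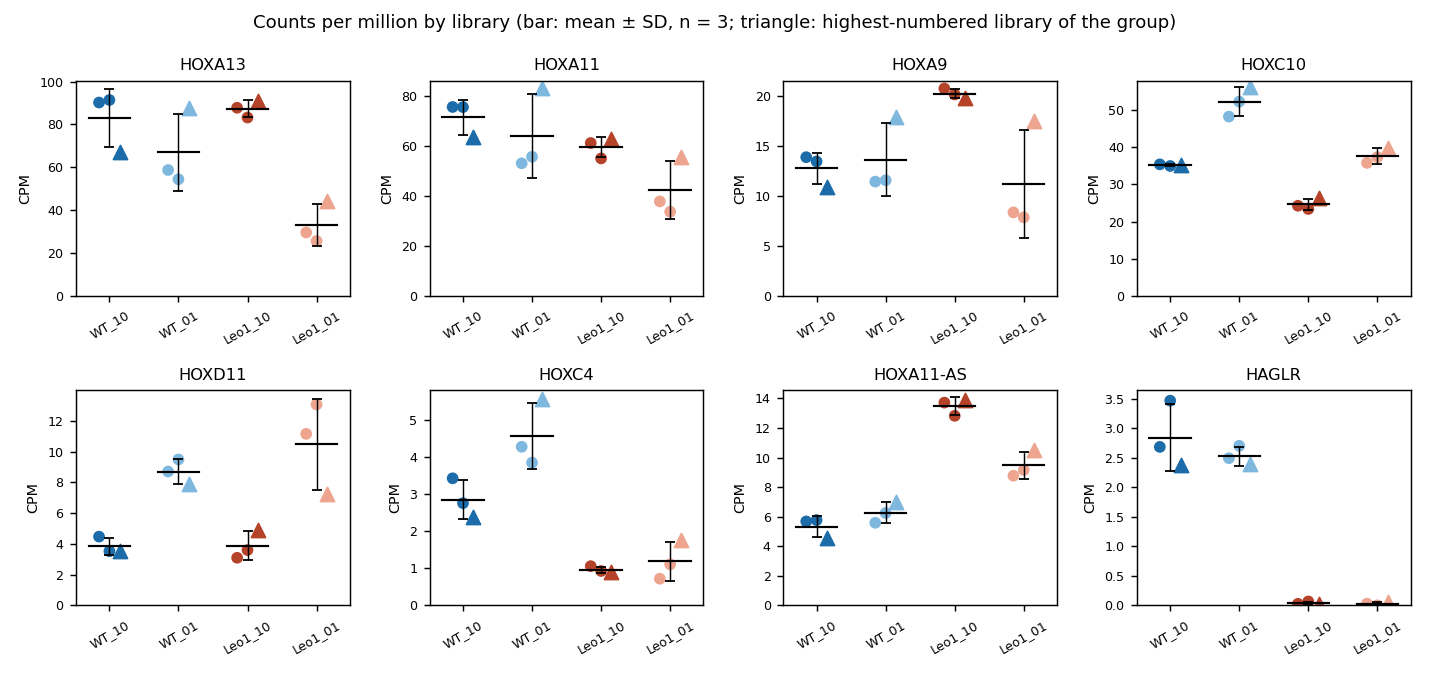
CPM of 6 HOX genes and of the noncoding RNAs HOXA11-AS and HAGLR in the 12 libraries, by group. Points are libraries, with a triangle for the highest-numbered library of each group, and bars are the group mean ± SD (n = 3). HOXA13 is lowest in Leo1_01, and HOXC10 does not overlap between sera within a genotype or between genotypes within a serum.

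The make-up of the HOX transcripts needs no scaling between libraries, since it is the share of a library's own HOX counts (8638 to 15399 per library). HOXA supplied 66.2% to 71.3% of them in WT_10 and 54.3% to 60.6% in WT_01, and 70.6% to 74.7% in Leo1_10 and 45.3% to 54.5% in Leo1_01. The serum groups did not overlap in either genotype. HOXC supplied 20.4% to 24.1% in WT_10, 27.8% to 29.4% in WT_01, 18.3% to 20.6% in Leo1_10 and 31.5% to 34.2% in Leo1_01. HOXD supplied 8.07% to 9.67% in WT_10, 11.5% to 16.3% in WT_01, 7.08% to 8.73% in Leo1_10 and 14.0% to 21.0% in Leo1_01. The HOXC and HOXD shares were thus higher in 0.1% serum with no overlap, in both genotypes. The shares are parts of one whole, so a lower HOXA share by itself makes the rest higher. Scaled to the ERCC counts, mean HOXC sums were 7137 in WT_10, 4976 in WT_01, 7889 in Leo1_10 and 5713 in Leo1_01. The mean HOXD sums were 2834, 2478, 3127 and 2752, in the same order. Between genotypes, the only shares without overlap were those of HOXC in 0.1% serum, with means of 28.7% ± 0.8 in WT_01 and 33.1% ± 1.43 in Leo1_01 (SD, n = 3). Each comparison without overlap gave p = 0.1 in a two-sided exact permutation test, the smallest that 3 against 3 libraries allow.

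**Figure D4:**
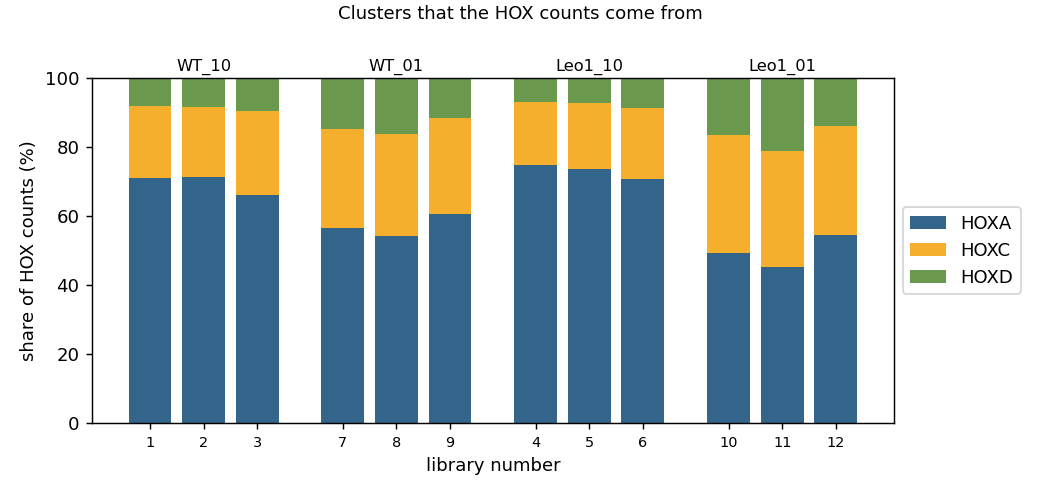
Percent of each library's HOX counts from HOXA, HOXC and HOXD, by group, as 1 stacked bar per library. The HOXA share is lower, and the HOXC and HOXD shares higher, in 0.1% serum than in 10% serum in both genotypes.

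Between ΔLEO1 and wild-type cells, no HOX gene passed on the spike-in scale. In 10% serum 0 of 19 rose and 0 fell, against 4.20% and 4.64% of all genes, and in 0.1% serum 0 rose and 0 fell, against 3.85% and 3.59%. At an unadjusted p below 0.05, 4 were higher and 1 lower in 10% serum, and 1 was higher and 1 lower in 0.1% serum, and neither the quasi-likelihood test nor DESeq2 called any. Without library 11 or 12, 3 were higher in 10% serum, against 6.70% and 8.11% of all genes. Without library 12, 1 was lower in 10% serum and 2 in 0.1% serum, against 6.22% and 7.87% of all genes. In 0.1% serum 1 was lower without library 3, against 3.65%, and 1 higher without library 11, against 9.95%. The HOX medians were 0.28 and 0.23, and those of all genes 0.35 and 0.27. HOXC4 came closest in 0.1% serum, at a log2 difference of -1.52 (SE 0.523, adjusted p = 0.0598), with -1.26 in 10% serum, and HOXA6 came closest in 10% serum, at 1.47 (SE 0.547, adjusted p = 0.0825). HOXA6 was tested only because of its level in Leo1_10. Without libraries 3, 6, 9 and 12, HOXC4 was lower and HOXA6 higher in 10% serum, and 4 HOX genes, among them HOXA11, HOXA13 and HOXC4, were lower in 0.1% serum, where 15.9% of all genes were.

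When scaled to the other genes, HOXA5 (0.98, SE 0.225), HOXA6 (1.05, SE 0.337), HOXA9 (0.66) and HOXC13 (0.95) were higher in ΔLEO1 cells in 10% serum, 4 of 19 against 17.7% of all genes. HOXA6 entered the tests only through Leo1_10, the group where it was higher, so its call is tied to the filter. HOXA7 (-0.55), HOXC4 (-1.57, SE 0.285, adjusted p = 3.34e-07) and HOXC10 (-0.52, SE 0.112, adjusted p = 2.08e-05) were lower, 3 of 19 against 21.8%. In 0.1% serum HOXA5 (0.60) and HOXC13 (1.18) were higher, 2 of 19 against 15.4% of all genes. The lower genes were 5 of 19 against 17.6%, among them HOXA11 (-0.59), HOXA13 (-1.01, SE 0.220, adjusted p = 4.82e-05), HOXC4 (-1.93, SE 0.283, adjusted p = 2.39e-10) and HOXC10 (-0.46). These shares stood near those of all genes, and on the spike-in scale each of these differences kept its sign but missed the threshold. No HOXD gene passed in either serum with all 12 libraries. When libraries 3, 6, 9 and 12 were left out, HOXD9 was lower in both sera (-0.57 and -0.39), HOXD8 lower in 10% serum (-0.34) and HOXD11 higher in 0.1% serum (0.47).

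HOXC4 and HOXC10 passed in both sera in each of the 12 fits without 1 library, as did HOXA5 in 10% serum, and HOXA13 and HOXC13 in 0.1% serum. The 4 higher genes in 10% serum became 2 without library 1, 4 or 6 and 1 without library 2, where 13.2% to 15.4% of all genes were higher. The 3 lower genes became 5 without library 3, against 21.2% of all genes. In 0.1% serum the 2 higher genes became 1 without library 7 or 11, against 11.9% and 12.1% of all genes, and the 5 lower genes became 3 without library 9, against 16.7%. Markers of other cell types moved with genotype as well. TEK was the only one of 4 endothelial markers on, and the summed markers held 2.01 to 5.52 CPM in wild-type libraries and 0.400 to 0.644 in ΔLEO1 libraries. PTPRC and CD14 were the 2 of 4 leukocyte markers on, with sums of 0.995 to 1.70 CPM in wild-type and 2.68 to 8.24 in ΔLEO1 libraries. No marker of these 2 lists was at 0 in all libraries, and their part in the HOX differences was not tested.

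**Figure D5:**
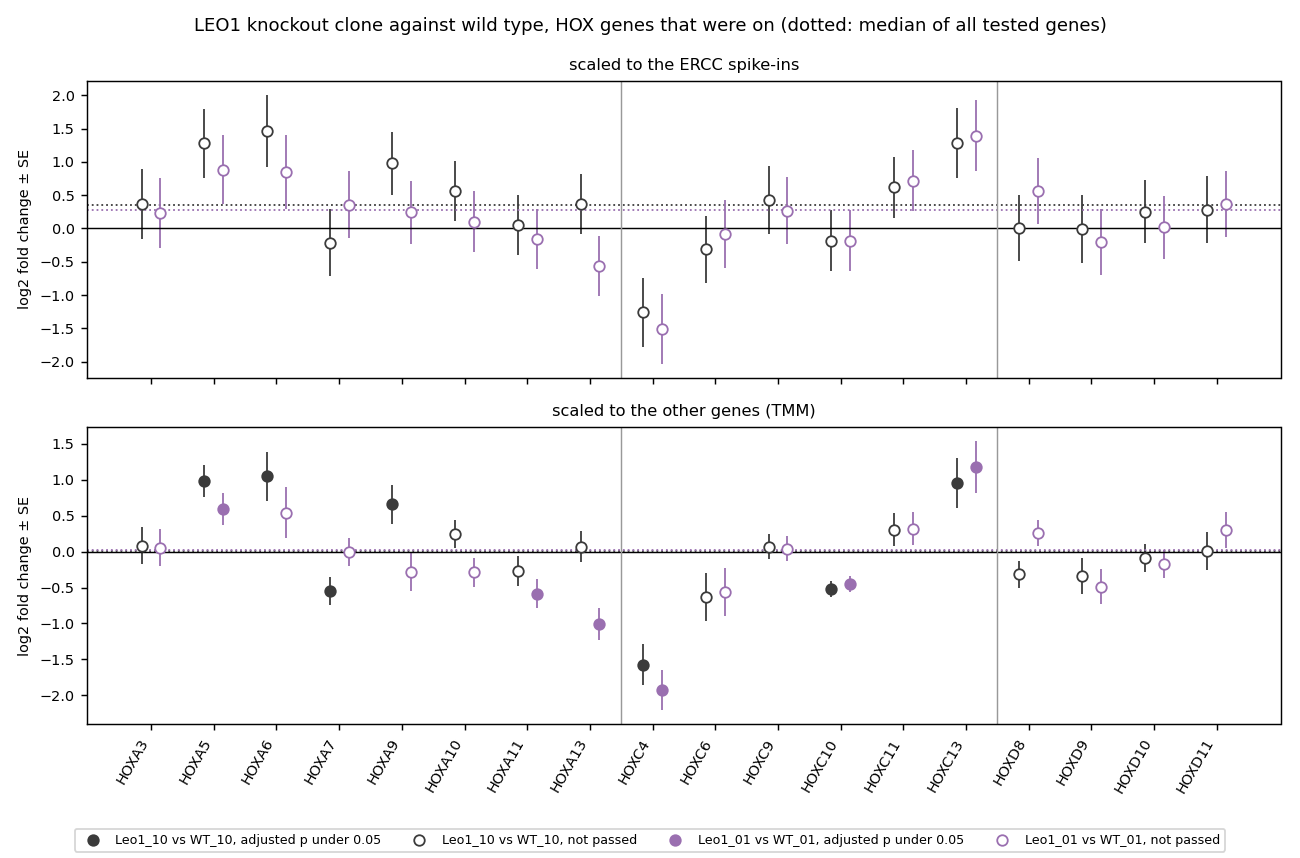
Difference of HOX genes that were on between ΔLEO1 and wild-type cells, as log2 fold change ± SE, in 10% and in 0.1% serum. No gene passed on the spike-in scale in the upper panel. In the lower panel, relative to the other genes, HOXC4 and HOXC10 were lower and HOXA5 and HOXC13 higher in both sera.

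The difference between genotypes in the response to serum was tested as an interaction. On the spike-in scale 0 of 19 HOX genes passed in either direction, against 0.136% of all genes with a more positive response in ΔLEO1 cells and 0.0831% with a more negative one, and 0 HOX genes passed an unadjusted p of 0.05, the quasi-likelihood test or DESeq2. With TMM on the genes, HOXA13 passed with a more negative response in ΔLEO1 cells, by -1.08 (SE 0.310, adjusted p = 0.0194), 1 of 19 against 1.02% of all genes. None passed in the positive direction, against 3.06%, although 2 had an unadjusted p below 0.05, and the quasi-likelihood test called none. The HOXA13 call was lost in the quasi-likelihood test (adjusted p = 0.100) and without library 3, 4, 6, 10 or 11. Without library 12, 2 HOX genes passed in the negative direction, against 1.78% of all genes.

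Some genes below the threshold for being on differed between the genotypes in their few counts. They were named after their values were seen. HOXD1, at the anterior end of its cluster, had 4, 12 and 8 counts in WT_10, 0, 0 and 0 in Leo1_10, 7, 5 and 2 in WT_01, and 1, 0 and 0 in Leo1_01. HOXD13, the gene of the digits and genital bud at the other end, had 2, 4 and 3 counts in WT_10, 0, 0 and 1 in Leo1_10, 6, 5 and 3 in WT_01, and 0, 0 and 0 in Leo1_01. Every wild-type library held more of each than any ΔLEO1 library in the same serum. Against a floor of 3 counts over the group, HOXD1 was at least 8.95-fold lower in ΔLEO1 cells in 10% serum and HOXD13 at least 5.13-fold lower in 0.1% serum. The ratio of wild-type to ΔLEO1 counts was 15.4 for HOXD1 in 0.1% serum (95% exact interval 2.34 to 650) and 10.1 for HOXD13 in 10% serum (1.40 to 441), relative to all gene counts. HOXC8 had 83 counts in WT_10 and 21 in Leo1_10, a ratio of 4.42 (2.71 to 7.52), and 79 in WT_01 and 17 in Leo1_01, a ratio of 5.11 (3.0 to 9.20). These intervals cover counting error only.

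With no filter on low counts, spike-in scaling and edgeR's likelihood ratio test, HOXD1 passed in 10% serum (adjusted p = 0.000821), and HOXD13 (adjusted p = 0.00805) and HOXC8 (adjusted p = 0.0265) passed in 0.1% serum. In the other serum each missed the threshold, HOXD1 at an adjusted p of 0.0532, HOXD13 at 0.282 and HOXC8 at 0.0841. HOXC8 also passed in 0.1% serum with edgeR's own filter (adjusted p = 0.0133). HAGLR and another antisense gene cover 58.1% of the exonic bases of HOXD1 on the opposite strand. HOXD3 and HOXD4 share 62.2% and 80.5% of their exonic bases with another gene on the same strand, HOXC5 59.9% and HOXA4 31.0%, so their low counts are uncertain.

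The noncoding RNAs of the clusters were a list of 18, of which 8 were on. HAGLR, an antisense RNA of the HOXD cluster, had 98, 136 and 93 counts in WT_10, 1, 3 and 1 in Leo1_10, 84, 71 and 80 in WT_01, and 1, 0 and 2 in Leo1_01. The genotypes were far apart in both sera. Summed over the group and relative to all gene counts, wild-type cells held 73.2 times as much in 10% serum (95% exact interval 31.0 to 227) and 86.1 times in 0.1% serum (29.1 to 420), and HAGLR passed on both scales in each of the 12 fits without 1 library. HAGLR entered the tests through its wild-type level alone, so its calls between genotypes are tied to the filter. HOXA11-AS, antisense to HOXA11, lay at 5.68, 5.77 and 4.54 CPM in WT_10, at 13.7, 12.8 and 13.9 in Leo1_10, at 5.58, 6.25 and 6.99 in WT_01, and at 8.77, 9.16 and 10.5 in Leo1_01. It was higher in each ΔLEO1 library than in any wild-type library.

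On the spike-in scale, HOXA11-AS (1.65, SE 0.489, adjusted p = 0.0144) and HOXC-AS3 (1.65, adjusted p = 0.0262) rose and HAGLR fell in ΔLEO1 cells in 10% serum, and in 0.1% serum HAGLR alone fell. That was 2 of 8 higher and 1 lower in 10% serum, against 4.20% and 4.64% of all genes. In 0.1% serum 0 were higher and 1 lower, against 3.85% and 3.59%. With serum removal, HOXA11-AS (-1.61), HOTTIP (-1.38) and HOXA10-AS (-1.23) fell in ΔLEO1 cells, and in wild-type cells HAGLR came closest (-1.24, adjusted p = 0.0516). So 3 of 8 fell in ΔLEO1 cells, against 47.2% of all genes, and 0 in wild-type cells, against 36.1%. With TMM on the genes, HOXA11-AS and HOXC-AS3 were higher, and HAGLR and HOXD-AS2 lower, in ΔLEO1 cells in both sera, and with serum removal HOXA11-AS fell in ΔLEO1 cells. That was 2 of 8 higher and 2 lower, against 17.7% and 21.8% of all genes in 10% serum. In 0.1% serum the shares of all genes were 15.4% and 17.6%. The 1 fall with serum removal stood against 12.9% of all genes. HOXD-AS2, like HAGLR, passed 1 CPM in wild-type libraries alone, so its calls as lower are tied to the filter. HOTAIR, an RNA from the HOXC cluster that binds Polycomb proteins, ranged from 20.4 to 43.2 CPM and passed no test on either scale with all 12 libraries. With libraries 3, 6, 9 and 12 left out it fell with serum removal on the spike-in scale in ΔLEO1 cells (-1.20), and relative to the other genes it rose in both genotypes (0.28 and 0.60) and was lower in ΔLEO1 cells in both sera (-0.64 and -0.32). HOTAIRM1, another noncoding RNA of the clusters, ranged from 1.25 to 2.61 CPM and passed none with all 12 libraries. Without those 4 it fell on the spike-in scale in ΔLEO1 cells (-1.34). In that fit 93.1% of all genes fell in ΔLEO1 cells on the spike-in scale, with a median log2 change of -1.72.

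On the spike-in scale, 36.1% and 47.2% of all genes fell with serum removal in wild-type and ΔLEO1 cells, and the shares of the partners and regulators of HOX genes that fell stood near or below these. Of the 8 expressed TALE proteins, which bind DNA together with HOX proteins, 3 fell on the spike-in scale in wild-type cells, MEIS2 (-1.98), PBX3 (-1.22) and MEIS3 (-1.12), and the same 3 fell in ΔLEO1 cells (-1.38, -1.12 and -1.06). With TMM on the genes, where 16.0% of all genes rose and 16.6% fell in wild-type cells and 16.5% and 12.9% in ΔLEO1 cells, 3 TALE genes rose and 1 fell in wild-type cells, and 2 rose and 0 fell in ΔLEO1 cells. Of the 29 Polycomb genes, 7 fell in wild-type cells, led by EZH2 (-1.33), CBX8 (-1.33) and CBX2 (-1.26), and 10 in ΔLEO1 cells, among them CBX8 (-1.72) and MTF2 (-1.40). Of the 19 Trithorax and elongation genes, 5 fell in wild-type cells, led by DOT1L (-1.37), ASH2L (-1.22) and DPY30 (-1.17), and 7 in ΔLEO1 cells, led by WDR5 (-1.39), DPY30 (-1.19) and RBBP5 (-1.13). The direction depended on the scale: with TMM on the genes, against those same shares, 9 of 29 Polycomb genes rose and 0 fell in wild-type cells and 5 rose and 1 fell in ΔLEO1 cells, and 2 Trithorax and elongation genes rose and 0 fell in each. Between genotypes no gene of these 3 lists was called on the spike-in scale with all 12 libraries. With TMM on the genes, 6 of 29 Polycomb genes were higher in growing ΔLEO1 cells, near the 17.7% of all genes, among them CBX2 (1.14) and RYBP (0.71), and 1 was lower, against 21.8%. Of 12 expressed genes that flank the clusters, 5 fell in wild-type cells, with HIBADH (-1.54), LNPK (-1.44) and CBX5 (-1.23) first, and 4 in ΔLEO1 cells, with HIBADH (-1.76), ATP5MC3 (-1.41) and TAX1BP1 (-1.36) first, while with TMM 3 fell and 1 rose in each genotype.

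Genes of the retinoic acid and signalling pathways that induce HOX genes, 11 of 17 of them expressed, held larger differences. On the spike-in scale 1 rose and 1 fell with serum removal in wild-type cells, against 0.944% and 36.1% of all genes. In ΔLEO1 cells 0 rose and 2 fell, against 0.975% and 47.2%. In 10% serum 2 were higher and 1 lower in ΔLEO1 cells, against 4.20% and 4.64%. In 0.1% serum 1 was higher and 1 lower, against 3.85% and 3.59%. ALDH1A1, an enzyme that makes retinoic acid, fell with serum removal in both genotypes (-3.43 and -3.84) and was higher in ΔLEO1 cells in both sera (3.28 and 2.87). ALDH1A3, a related enzyme, was lower in ΔLEO1 cells in both sera (-1.85 and -2.34). CYP26B1, which degrades retinoic acid, rose with serum removal in wild-type cells (2.99) and fell in ΔLEO1 cells (-1.28), where TMM gave -0.37 and no call, and it was higher in ΔLEO1 cells in 10% serum (3.97). Its counts were 3, 8 and 6 in WT_10, 63, 78 and 91 in Leo1_10, 80, 70 and 63 in WT_01, and 55, 28 and 68 in Leo1_01. WT_10 alone stood apart, and no other gene of this list passed on the spike-in scale with all 12 libraries. With TMM 6 of the 11 rose and 1 fell with serum removal in each genotype. Of all genes 16.0% rose and 16.6% fell in wild-type cells, and 16.5% and 12.9% in ΔLEO1 cells. Between genotypes TMM gave 2 higher and 5 lower in 10% serum, against 17.7% and 21.8% of all genes. In 0.1% serum it gave 3 higher and 4 lower, against 15.4% and 17.6%.

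Other transcription factors that mark body position, 36 of 63 of them expressed, included 7 that were lower in ΔLEO1 cells in each serum on the spike-in scale, against 4.64% of all genes in 10% and 3.59% in 0.1% serum. The higher ones numbered 2 in 10% and 1 in 0.1% serum, against 4.20% and 3.85%. With TMM the lower genes numbered 19 and 21, against 21.8% and 17.6% of all genes, and the higher ones 6 and 3, against 17.7% and 15.4%. SIX2 (-5.99 and -4.21), SHOX2 (-4.31 and -3.80) and HAND2 (-3.44 and -3.28), factors of the kidney and face, the limb, and the limb and heart, and MSX2 (-3.20 and -3.37), a limb and skull factor, were lower in both sera. SHOX2 held 19.7 to 44.9 CPM in wild-type and 0.816 to 2.67 CPM in ΔLEO1 libraries. SIX2, MSX2 and HAND2 passed 1 CPM in no ΔLEO1 library. They entered the tests through their wild-type level alone, so their calls as lower are tied to the filter. With serum removal 2 fell and 1 rose in wild-type cells, among them ZIC1 (-1.42) and OSR2 (1.17), and 4 fell and 1 rose in ΔLEO1 cells, among them ZIC1 (-1.60) and GATA6 (1.58), where 36.1% and 47.2% of all genes fell and 0.944% and 0.975% rose. With TMM, 19 rose and 0 fell in wild-type cells, against 16.0% and 16.6% of all genes, and 21 rose and 2 fell in ΔLEO1 cells, against 16.5% and 12.9%. The list medians for genotype were -0.27 and -0.33, beside 0.28 and 0.23 for the HOX genes and 0.35 and 0.27 for all genes, in 10% and 0.1% serum.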

How the data were processed

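RNA of wild-type and ΔLEO1 BJ-5ta fibroblasts in 10% and 0.1% serum was sequenced in 12 libraries, 3 in each of 4 groups. The authors deposited raw counts per gene and per ERCC transcript. Per the labels and the submitters' processing notes, bcl2fastq 2.20.0.422, STAR 2.7.10a, featureCounts 1.5.1 and GRCh38 were used. Neither the gene annotation's release nor whether counting used strand is given in the sources used here. Without strand, genes that overlap on opposite strands cannot be separated.

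Counts were tested with edgeR 4.0.16 in R 4.3.3. Genes above 1 CPM in at least 3 libraries were kept (13236). Library sizes were the ERCC totals with TMM factors computed on the ERCC transcripts. One fit of the 4 groups gave 5 comparisons by likelihood ratio tests, and p-values were adjusted by Benjamini-Hochberg over all genes, with a threshold of 0.05. TMM on the genes gave changes relative to the other genes. Alternatives were the quasi-likelihood test, DESeq2 1.42.0, other size factors, filters, thresholds, library subsets and a term for libraries 3, 6, 9 and 12. The tests were first run on simulated data. RPKM used exon lengths of GENCODE release 29, which held 58453 of the 60671 gene identifiers. Promoter sequences came from RefSeq, GRCh38.p14.

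The counts cover all 39 HOX genes. A few genes are not reported here. CPM in every library is given for each other HOX gene called in any test and for the leading gene of each cluster. From each other list, counts called and up to 3 called genes with the largest change are given, though not for every comparison on both scales. TEK, PTPRC, CD14, HOTAIR, HOTAIRM1, HOXD1, HOXD13 and HOXC8 were named after their values were seen. The members and the lists were chosen with earlier results of these data known.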

Additional observations from a re-analysis of the deposited data

Results flagged for a closer look

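These genes responded to serum removal differently in ΔLEO1 and wild-type cells by the interaction test. HOXA13 had an interaction of -1.08 on the log2 scale relative to the other genes, with -0.93 and no call on the spike-in scale, and it passed in 7 of the 12 fits without 1 library. Without libraries 3, 6, 9 and 12 it was -0.88 and passed, in a fit where 9.99% of all genes passed in that direction. HOXA11-AS had -0.72 relative to the other genes, with -0.74 and no call on the spike-in scale, and it passed in 2 of the 12 fits. CYP26B1 was the only listed gene that passed on both scales, at -4.26 (SE 0.820, adjusted p = 0.000355) on the spike-in scale and -4.21 relative to the other genes, and it passed in all 12 fits on both. Relative to the other genes alone, RARA, a retinoic acid receptor, had 0.85 and passed in all 12 fits. LNPK, beside the HOXD cluster, had 0.72 and passed in 4 of 12, TWIST1 had -0.74 and passed in 6, and OSR2 had -1.25 and passed in 4.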

How the results depend on the processing

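The scale decided most counts of HOX genes called. With TMM on the genes or DESeq2's size factors on the genes in place of the ERCC transcripts, the 4 falling with serum removal in wild-type cells became 0 and the 0 rising became 7. In ΔLEO1 cells the 6 falling became 3 and the 0 rising 7. Between genotypes the 0 lower and 0 higher became 3 and 4 in 10% serum and 5 and 2 in 0.1% serum, and the interaction gave 1 lower. Of the changes relative to the other genes, HOXC9 (-0.51 in wild-type, -0.67 in ΔLEO1 cells), HOXC10 (-0.50 in both), HOXC11 (-0.42 and -0.32) and HOXD10 (-0.31 and -0.55) turned negative on the spike-in scale, as did HOXD8 in wild-type cells (-0.49), none of them called there. This follows from the fall of the median gene on that scale.

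On the spike-in scale, with no filter the counts were 2 falling in wild-type cells and 1 and 2 lower in ΔLEO1 cells in 10% and 0.1% serum. The shares of all 32285 genes there were 10.5%, 2.49% and 2.11%. With edgeR's filterByExpr 1 was lower in 0.1% serum, against 4.03% of all genes, and 7 HOXD genes were on in place of 4. With only the groups compared in the fit, 8 fell in wild-type cells, against 64.8% of all genes. In ΔLEO1 cells 4 fell in such a fit, against 12.4%. Between genotypes in 10% serum, such a fit gave 1 lower and 3 higher in ΔLEO1 cells. Of all 13236 genes, 794 were lower and 1043 higher there. At a threshold of 0.01, 0 fell in wild-type and 2 in ΔLEO1 cells, against 12.4% and 9.61% of all genes. With libraries 1 and 2, 4 and 5, 7 and 8, and 10 and 11 each summed to 1 library, 0 fell in either, against 4.58% and 1.53% of all genes. Without libraries 3, 6, 9 and 12, 9 fell in wild-type and 17 in ΔLEO1 cells, against 72.4% and 93.1% of all genes. In that fit 1 was lower and 1 higher in ΔLEO1 cells in 10% serum, against 6.82% and 6.72%, and 4 were lower in 0.1% serum, against 15.9%. The causes of these shifts were not tested. DESeq2 with ERCC size factors, ERCC totals without TMM and the quasi-likelihood test kept each count on that scale within 1.5 times of the original.

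Relative to the other genes, and chosen after seeing the data, leaving out libraries 3, 6, 9 and 12 gave 7 falling in wild-type cells (0 with all), 6 in ΔLEO1 cells (3), 8 lower between genotypes in 10% serum (3), 8 lower and 4 higher in 0.1% serum (5 and 2), and 3 lower and 4 higher in the interaction (1 and 0). More of all genes were called there too, 28.4% to 32.6% lower in the serum and genotype comparisons and 31.1% higher between genotypes in 0.1% serum. In the interaction 9.99% of all genes were lower and 17.5% higher, against 1.02% and 3.06% with all libraries. The quasi-likelihood test left 0 in the interaction.

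Leaving out 1 library at a time on the spike-in scale gave 0 to 8 falling in wild-type cells and 1 to 16 in ΔLEO1 cells, 0 to 1 lower and 0 to 3 higher in ΔLEO1 cells in 10% serum, 0 to 2 lower and 0 to 1 higher in 0.1% serum, and 0 elsewhere. In those fits 8.64% to 65.3% of all genes fell in wild-type cells and 4.86% to 88.4% in ΔLEO1 cells. Between genotypes 3.07% to 6.22% were lower and 2.53% to 8.11% higher in 10% serum. In 0.1% serum these shares were 2.37% to 7.87% and 2.39% to 9.95%. Relative to the other genes, 3 to 8 rose and 0 to 3 fell in wild-type cells. Of all genes, 11.4% to 19.0% rose and 11.5% to 18.9% fell there. In ΔLEO1 cells 4 to 7 rose and 1 to 5 fell, against 12.1% to 18.5% and 8.72% to 15.7%. Between genotypes in 10% serum 1 to 4 were higher and 2 to 5 lower, against 13.1% to 20.6% and 18.5% to 24.1%. In 0.1% serum 1 to 3 were higher and 3 to 7 lower, against 11.4% to 17.6% and 14.6% to 19.7%. The interaction gave 0 to 1 higher and 0 to 2 lower, against 2.04% to 4.59% and 0.614% to 1.78%. No paired analysis was possible because the 12 library numbers in the labels are all different and pair no libraries across groups. A term for libraries 3, 6, 9 and 12 in the fit was also chosen after seeing the data. It gave 3 falling in wild-type and 5 in ΔLEO1 cells on the spike-in scale, against 29.4% and 32.2% of all genes. Without the term those counts were 4 and 6. The term kept each count on both scales within 1.5 times.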

Other observations

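Limb-type factors outside the HOX clusters were read beside the HOX pattern, named after their values were seen. TBX5, a forelimb and heart factor, held 49.5 to 96.4 CPM in the 12 libraries, TBX4, its hindlimb relative, at most 0.776 CPM, and PITX1, a hindlimb factor, 27.7 to 106 CPM. The 3 markers of muscle summed to at most 0.332 CPM, the 5 of pigment cells to at most 0.823 CPM and the 2 of epithelium to at most 1.44 CPM.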
